A study of Mus musculus with 6 samples.

Results

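L1Md_F3 copies are one class of LINE-1 (L1) retrotransposon in the mouse genome, and 661 of the 13686 L1 copies that held a small RNA read in these data carry exactly that class name. All reads placed in these copies were used, 3034 of 393511 listed L1 reads (0.771%). The copies make up 4.83% of the L1 copies, but 3 copies of other classes held 73.7% to 84.3% of a library's listed L1 reads. Without those 3 copies L1Md_F3 made up 3.29% to 4.85% of the L1 reads of a library. The reads come from mouse E14 embryonic stem cells (ESCs, a 129/Ola line grown without feeders on gelatin in serum and LIF) that were infected with a lentivirus carrying a short hairpin RNA. The hairpin was a non-targeting one (shScr), one against Tet1 (shTet1) or one against Tet2 (shTet2), giving 2 libraries for each of the 3 conditions. Cells of all conditions, controls included, went through infection and puromycin selection; the labels give 1 µg/ml from 24 h after infection and 3 days of selection, and the study's methods state another dose and a longer range of days. A single cell line was used and the labels do not say that the 2 libraries of a condition came from separate infections, so the spread between them may be technical. Reads that name the Tet1 or Tet2 transcripts were not analysed here, so the knockdowns were not checked.

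TET1 and TET2 are enzymes that oxidise methylated cytosine in DNA, a step towards its removal. A full-length L1 holds a promoter in its 5′ untranslated region, an open reading frame for an RNA-binding protein (ORF1), a second one for an endonuclease and reverse transcriptase (ORF2), and a 3′ end with a poly(A) tail. Small RNAs cut from L1 transcripts can silence L1s: Dicer makes short interfering RNAs from double-stranded RNA, and Piwi proteins in the germ line carry longer piRNAs, many of which begin with U. The F class of mouse L1s, named after its type of promoter repeat, is older than the A, T and Gf classes that still move; L1Md_F2 and L1Md_F3 are classes related to it by name and sequence.

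The most frequent L1Md_F3 reads are short. The 6 read sequences with the highest mean share of the L1Md_F3 reads over the 6 libraries are given first, since they recur below. Each is written as sequenced from 5′ to 3′, and a capital marks a base at which the read differs from the copy in which most of its reads were placed.
Read 1: aggatcacagaaaaag
Read 2: tacaaggttgatcctgcc
Read 3: tctcgcgccgggcCg
Read 4: tacaaggttgatccAgcc
Read 5: tacatGgttgatcctgcc
Read 6: taaaTggttgatcctgct
Start of 18S rRNA: tacctggttgatcctgcc

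Read 1 has 16 nt and lies in sense orientation at chr2:150290656-150290671 (mm9), 491 bp from the 5′ end of its copy. Reads 2, 4, 5 and 6 have 18 nt, lie antisense to the copy and share the letters TTGATCC. Read 2 was placed most often at chr4:48858923-48858940, and read 4 at chr14:106479232-106479249. Read 5 was placed most often at chr17:83011238-83011255, and all 55 reads of read 6 at chr14:73014753-73014770. Read 3 has 15 nt and lies antisense at chr19:39231599-39231613. Reads 1 and 2 occur without mismatch at 32 and 17 places in the genome. Of these, 4 and 11 lie in listed L1 copies, and 1 and 2 in L1Md_F3 copies. Most exact places of read 1 thus lie outside the listed L1 copies. Reads 3 to 6 occur at 0 places without mismatch. The last line, shown for comparison, is the 5′ end of 18S ribosomal RNA, known from textbooks and read here from a ribosomal RNA-like stretch of the genome at chr17:39983298-39983315.

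L1Md_F3 reads were most numerous in the 3 libraries with the most listed L1 reads. The shScr replicates held 920 and 767 L1Md_F3 reads of 125478 and 128715 listed L1 reads. The shTet1 replicates held 100 and 142 of 11566 and 23484, and the shTet2 replicates 867 and 238 of 69360 and 34908. Both shTet1 libraries were below both shScr libraries, whereas shTet2 replicate 1 lay between the shScr libraries and replicate 2 below both. The difference in log2 reads was -2.82 for shTet1 (exact two-sided permutation test, p = 0.333, n = 2 per group) and -0.89 for shTet2 (exact permutation p = 0.667); 0.333 is the smallest p that 2 libraries against 2 allow. The totals of the whole libraries were not used here, so depth and amount cannot be told apart, nor can fewer cells with these RNAs and less of them per cell.

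As a share of the listed L1 reads, L1Md_F3 made up 0.733% (95% Wilson interval 0.687 to 0.782) and 0.596% (0.555 to 0.639) in the shScr replicates. The shTet1 shares were 0.865% (0.711 to 1.05) and 0.605% (0.513 to 0.712). The shTet2 shares were 1.25% (1.17 to 1.34) and 0.682% (0.601 to 0.774). Reads carried no molecular identifiers, so the intervals cover counting error only. shTet2 replicate 1 stood above the other 5 libraries, and its partner lay between the shScr replicates. Group means were 0.665% ± 0.0971 (SD, n = 2) for shScr, 0.735% ± 0.184 for shTet1 and 0.966% ± 0.402 for shTet2. The differences from shScr were 0.0701 and 0.301 percentage points and neither exceeded the spread between replicates (exact permutation p = 0.667 for both).

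In a limma voom fit of 21 L1 classes over all 6 libraries, L1Md_F3 had a log2 fold change of -0.13 (SE 0.13, adjusted p = 0.844) in shTet1 and 0.40 (SE 0.11, adjusted p = 0.236) in shTet2 against shScr. No class passed an adjusted p of 0.05 in either comparison (0% and 0%). L1Md_F3 had an unadjusted p of 0.0157 in shTet2, one of 4 classes under 0.05 (19%), and of 0.356 in shTet1, where 3 classes were under 0.05 (14.3%).

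The shTet2 estimate was lower without 1 group of reads. Reads holding TTGATCC within their first bases, to which reads 2, 4, 5 and 6 belong, numbered 579 in L1Md_F3 copies, all antisense. There were 95 and 103 of them with shScr, 15 and 15 with shTet1, and 323 and 28 with shTet2. They made up 37.3% of the L1Md_F3 reads of shTet2 replicate 1 and between 10.3% and 15.0% in the other 5 libraries. Without them the share of L1Md_F3 among the listed L1 reads was 0.662% and 0.519% with shScr, 0.748% and 0.543% with shTet1, and 0.815% and 0.605% with shTet2. The log2 fold change of L1Md_F3 in shTet2 without them was 0.11 (limma voom, adjusted p = 0.813). Among reads of 19 nt or longer, which leaves out most of the group, it was 0.28 (limma voom, adjusted p = 0.602).

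The total against which the share is taken was itself uneven. 3 L1 copies that are not L1Md_F3 held between 73.7% and 84.3% of the listed L1 reads of a library. Without these 3 copies L1Md_F3 made up 3.81% and 3.42% of the L1 reads with shScr, 3.29% and 3.53% with shTet1, and 4.85% and 4.35% with shTet2, so that both shTet2 libraries lay above both shScr libraries (difference 0.983 percentage points, exact permutation p = 0.333). With the TTGATCC reads left out as well, the shares were 3.55% and 3.07% in the shScr pair, 2.99% and 3.24% in the shTet1 pair, and 3.56% and 3.97% in the shTet2 pair. The means then differed by 0.454 percentage points (exact permutation p = 0.333), and the replicate 1 libraries of shScr and shTet2 by only 0.0111. In this form the limma voom log2 fold change was 0.16 (adjusted p = 0.712).

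**Figure D1:**
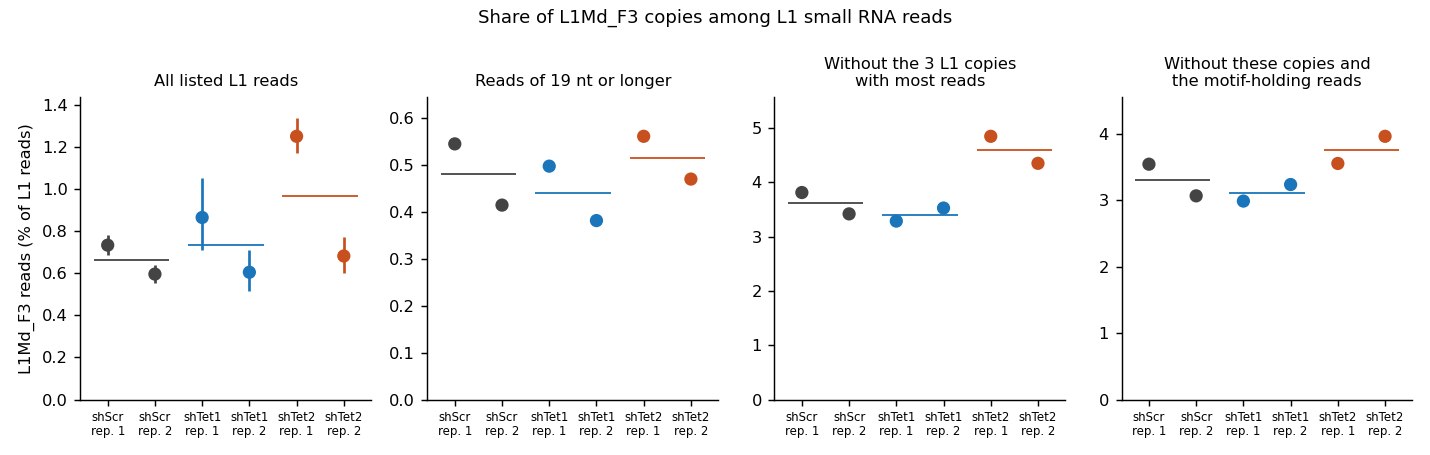
L1Md_F3 reads as a percentage of the L1 reads in each of the 6 libraries (points; horizontal lines are means of 2 libraries, vertical lines in the first panel 95% Wilson intervals), for 4 choices of reads, where the motif of the last panel is TTGATCC. shTet2 replicate 1 lies at 1.25% with all reads and at 0.560% among reads of 19 nt or longer, where shScr replicate 1 has 0.544%.

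The 18-nt reads of the TTGATCC group were compared with the start of 18S rRNA. Of the 579 reads, 492 (85.0%) had exactly 18 nt. Of these 492, 0 matched the 18S start in full, and 132, 117, 199, 31 and 13 differed from it at 1, 2, 3, 4 and 5 positions. They differed at position 4 in 84.8% of the reads, at position 5 in 73.0%, at position 15 in 25.8%, at position 18 in 23.2% and at position 3 in 22.6%, counted from the 5′ end of the read. The first 2 bases were kept in 487 reads, and bases 6 to 13 in 480. The reads were chosen by the letters TTGATCC, which take positions 8 to 14 of the 18S start, so a match there is set by the choice. Positions 4 and 5 were those at which most reads lacked the 18S letter. Against the L1Md_F3 copy in which each was placed, 143 had no mismatch and 349 had 1. Only reads placed in an L1 copy are listed, whereas a read identical to the 18S start matches the ribosomal RNA-like stretch named above in full. The 0 full matches and the positions of the differences may thus be set in part by which reads are listed. Whether these reads derive from L1 or from ribosomal RNA was not tested.

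**Figure D2:**
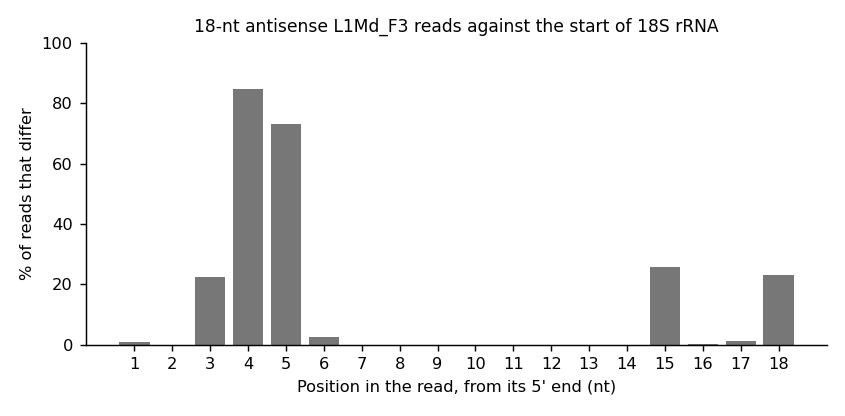
Percentage of the 492 antisense L1Md_F3 reads of 18 nt with TTGATCC that differ from the start of 18S rRNA (vertical axis), at each position of the read (horizontal axis, nt from the 5′ end). Differences stand mainly at positions 3 to 5, 15 and 18, with 84.8% at position 4. Positions 8 to 14 have 0 because the reads were chosen by the letters there, and only reads placed in L1 copies are listed.

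The same group was found outside L1Md_F3. Over all listed L1 reads there were 872 and 801 such reads with shScr, 201 and 106 with shTet1, and 2595 and 177 with shTet2. These are 0.695% and 0.622%, 1.74% and 0.451%, and 3.74% and 0.507% of the L1 reads. By class, L1Md_F held 1732 of them, L1Md_T 1299, L1Md_F2 805, L1Md_F3 579 and L1Md_A 251. Within L1Md_F3 they fell in 25 copies.

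The remaining 2 frequent reads varied in other ways. Read 1 was found 22 and 33 times in the shScr pair, 7 and 8 times in the shTet1 pair, and 13 and 12 times in the shTet2 pair. It was present in every library and was least frequent in shTet2 replicate 1, at 1.50% of the L1Md_F3 reads, and most frequent in shTet1 replicate 1, at 7%. Read 3 was found 56 and 1 times in the shScr pair, 6 and 0 times in the shTet1 pair, and 53 and 0 times in the shTet2 pair. It thus made up 6.09%, 6% and 6.11% of the L1Md_F3 reads in the 3 libraries numbered replicate 1, and 0.130%, 0% and 0% in those numbered replicate 2. It separated the replicate numbers and not the conditions. The labels do not say whether a number marks a shared preparation. Neither read was confined to L1Md_F3. Over all listed L1 copies read 1 was found 401 times and read 3 469 times, of which 23.7% and 24.7% were in L1Md_F3. Over all these copies read 3 was found 257 and 2 times with shScr, 20 and 0 times with shTet1, and 189 and 1 times with shTet2. Together the 6 sequences made up 15% and 12.5% of the L1Md_F3 reads with shScr, 25% and 9.86% with shTet1, and 30.1% and 10.5% with shTet2. In each condition the replicate 1 library had the larger part in these few sequences.

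**Figure D3:**
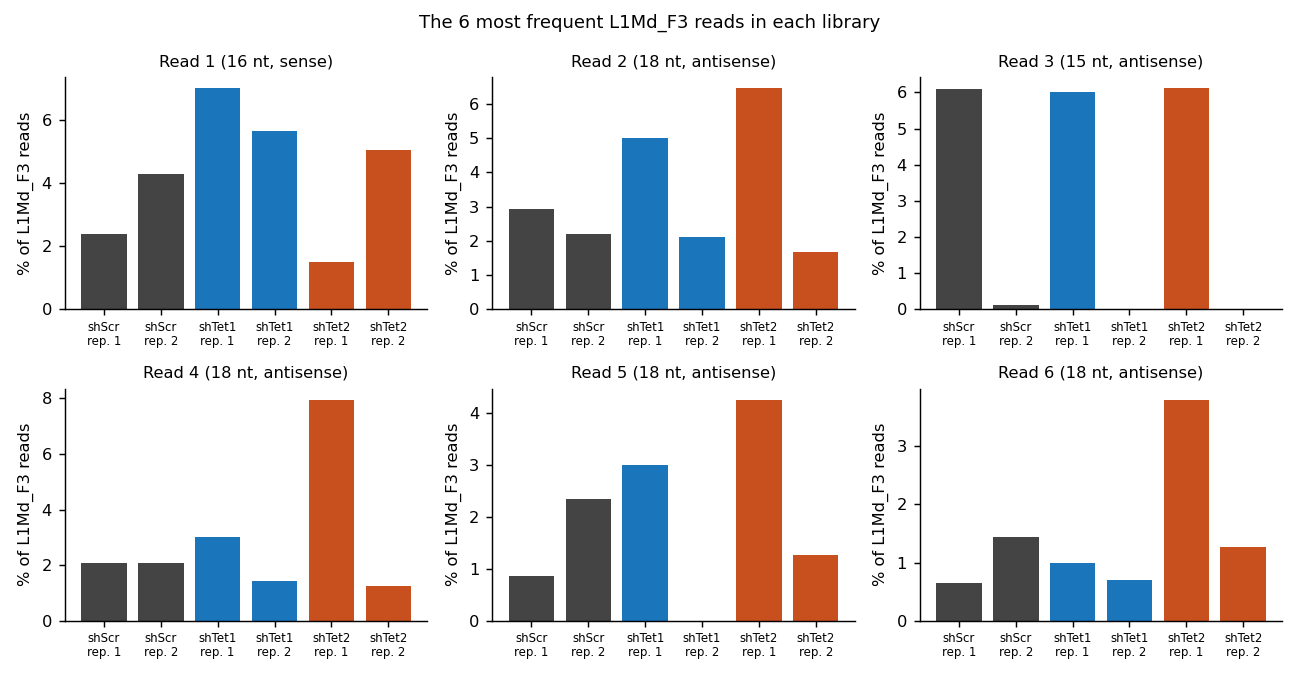
Reads 1 to 6 as a percentage of the L1Md_F3 reads (vertical axes, each from 0 and with its own scale) in the 6 libraries (bars). Read 3 stands at about 6% in each replicate 1 library and at no more than 0.130% in each replicate 2 library, and the 18-nt reads 2, 4, 5 and 6 are highest in shTet2 replicate 1.

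The reads were spread over many copies with few reads each. The median copy held 3 reads over all 6 libraries, 144 copies held 1 read, and 563 held at most 5. Reads were found in 421 and 376 copies with shScr, 70 and 107 with shTet1, and 309 and 167 with shTet2. Only 7 copies had reads in all 6 libraries, and 200 had reads in 1 library. The copies span 4999 to 8625 bp (median 5821 bp) and lie on 20 chromosomes, 68 of them on X (10.3%, against 11.1% of the other L1 copies). By the gene annotation, 550 copies lie outside genes, 110 inside a gene without touching an exon, and 1 touches an exon. Reads per copy over all libraries came to 4.59 for L1Md_F3, against 3.33 for L1Md_F2 without its copies among the 3 above, 6.10 for L1Md_T without its own, 7.52 for L1Md_A and 11.1 for L1Md_F. These values count the TTGATCC reads, which are 1732 of the 2441 L1Md_F reads and 579 of the 3034 L1Md_F3 reads.

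At the other end, 9 copies with 20 or more reads held 933 reads (30.8%). The copy with the highest mean share, 5.83% of the L1Md_F3 reads, lies at chr14:106477176-106482446 on the minus strand, outside any annotated gene. It held 36 and 22 reads in the shScr pair, 8 and 6 in the shTet1 pair, and 95 and 12 in the shTet2 pair. Of its 179 reads, 171 hold TTGATCC. The copy at chr4:48856841-48862985, also outside genes, held 35 and 34 reads in the shScr pair, 7 and 2 in the shTet1 pair, and 96 and 5 in the shTet2 pair, and 164 of its 179 reads hold TTGATCC. Both copies thus had most reads in shTet2 replicate 1, like the read group itself. The 2 copies share sequences, and 0 of the 179 reads of each had exactly 1 place in the genome. Read 2 was placed 58 times in the chr4 copy and 54 times in the chr14 copy, and read 4 49 and 59 times. Their counts are therefore not 2 separate observations.

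The copy at chr2:150285434-150291154 held 33 and 40 reads with shScr, 9 and 10 with shTet1, and 16 and 16 with shTet2, of which 95 in all were read 1 and 0 hold TTGATCC. It was the first by mean share when each position, strand and length was counted once, with 22 distinct reads. The copies at chr1:107367920-107374320, with 39 reads that count as 18, and at chr14 above, with 20, came next. A copy at chr19:39231297-39236650, in an intron of the cytochrome P450 gene Cyp2c66 and on the same strand as the gene, held 68 and 3 reads in the shScr pair, 6 and 2 in the shTet1 pair, and 67 and 0 in the shTet2 pair. Of its 146 reads, 116 were read 3. The copy at chr3:22177864-22183999 differed from these: its 36 reads were spread over 32 positions, and 14 of them had 1 place in the genome. These last 2 copies were picked for mention after their values were seen.

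Few L1Md_F3 reads could be assigned to 1 copy by an exact match. Between 52.8% (shTet2 replicate 1) and 74.4% (shTet2 replicate 2) of the reads of a library matched their place with no mismatch. Reads whose sequence occurs at exactly 1 place in the genome numbered 81 and 43 in the shScr pair, 6 and 8 in the shTet1 pair, and 68 and 14 in the shTet2 pair, which is 5.61% to 8.80% of the L1Md_F3 reads. Reads that match several places equally well were put at a random one by the aligner. A read named as L1Md_F3 may thus stem from another copy or from a place outside the listed L1 copies.

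When each position, strand and length in a copy was counted once, the 3034 reads became 681 and 622 with shScr, 76 and 126 with shTet1, and 453 and 209 with shTet2. That is 52.2% of the reads in shTet2 replicate 1 and 74.0% to 88.7% in the other libraries. Counted this way, L1Md_F3 made up 2.59% and 2.53% of the listed L1 positions with shScr, 1.77% and 2.11% with shTet1, and 2.50% and 2.67% with shTet2. Both shTet1 libraries were below the other 4, and they are also the 2 libraries with the fewest listed reads. The difference between shTet1 and shScr was -0.617 percentage points (exact permutation p = 0.333), and the limma voom log2 fold change was -0.41 (SE 0.16, adjusted p = 0.0747). The part of depth in this difference was not tested. For shTet2 the log2 fold change was -0.06 (adjusted p = 0.816), against 0.40 with every read counted.

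Along the copies, the first kilobase held more reads than any other in 5 of 6 libraries, and few lay in the last kilobase. The exception was shTet2 replicate 1, with 31.8% between 4 and 5 kb. Among reads of 19 nt or longer the first kilobase held most in 4 of 6 libraries, and shScr replicate 2 had more between 1 and 2 kb (26.3% against 20.5%) and shTet2 replicate 2 between 2 and 3 kb (24.3% against 22.3%). The first kilobase held 33.9% and 25.3% of the L1Md_F3 reads in the shScr pair, 37.0% and 33.8% in the shTet1 pair, and 25.3% and 28.2% in the shTet2 pair. The last kilobase before the 3′ end held 5% and 5.48% with shScr, 4% and 2.11% with shTet1, and 3.69% and 5.88% with shTet2. Differences in the 5′ kilobase were 5.80 percentage points for shTet1 and -2.90 for shTet2 (exact permutation p = 0.667 for both). In the 3′ kilobase they were -2.18 for shTet1, where the groups did not overlap (exact permutation p = 0.333), and -0.45 for shTet2 (exact permutation p = 1), and the 3′ value in shTet1 rests on 4 and 3 reads. The 5′ difference in shTet1 was 1.49 without shScr replicate 2 and 10.1 without shScr replicate 1, and the 3′ difference in shTet1 was -1.24 without shTet1 replicate 2.

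The balance of strands differed along the copies. Between 1 and 2 kb from the 5′ end, antisense reads made up 20.8% and 20.8% of the reads in the shScr pair, 18.8% and 12.9% in the shTet1 pair, and 18.4% and 40% in the shTet2 pair. Between 3 and 4 kb they made up 66.2% and 57.4% with shScr, 78.6% and 66.7% with shTet1, and 83.1% and 55.8% with shTet2. In every library the share was higher in the second window. Reads 2, 4, 5 and 6 lie 3206 to 4148 bp from the 5′ end of their main copies. Among reads of 19 nt or longer, which leaves out most of the TTGATCC group, the antisense share between 3 and 4 kb was 56.2% and 45.8% in the shScr pair, 66.7% and 54.5% in the shTet1 pair, and 41.0% and 44.4% in the shTet2 pair. It was 18.8% and 17.5%, 9.09% and 13%, and 10.7% and 24.0% between 1 and 2 kb, so the order of these 2 windows was the same in the 6 libraries without the 18-nt reads. The shTet1 values rest on 4 of 6 and 6 of 11 reads between 3 and 4 kb, and on 1 of 11 and 3 of 23 between 1 and 2 kb. In shTet1 replicate 1 the share was 75% between 2 and 3 kb, on 8 reads. Between 4 and 5 kb, again among reads of 19 nt or longer, it was 31.8% and 33.9% in the shScr pair and 30% and 36.8% in the shTet2 pair. In the shTet1 pair it was 80% and 0%, on 5 reads each, so replicate 2 was there below its share between 1 and 2 kb.

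**Figure D4:**
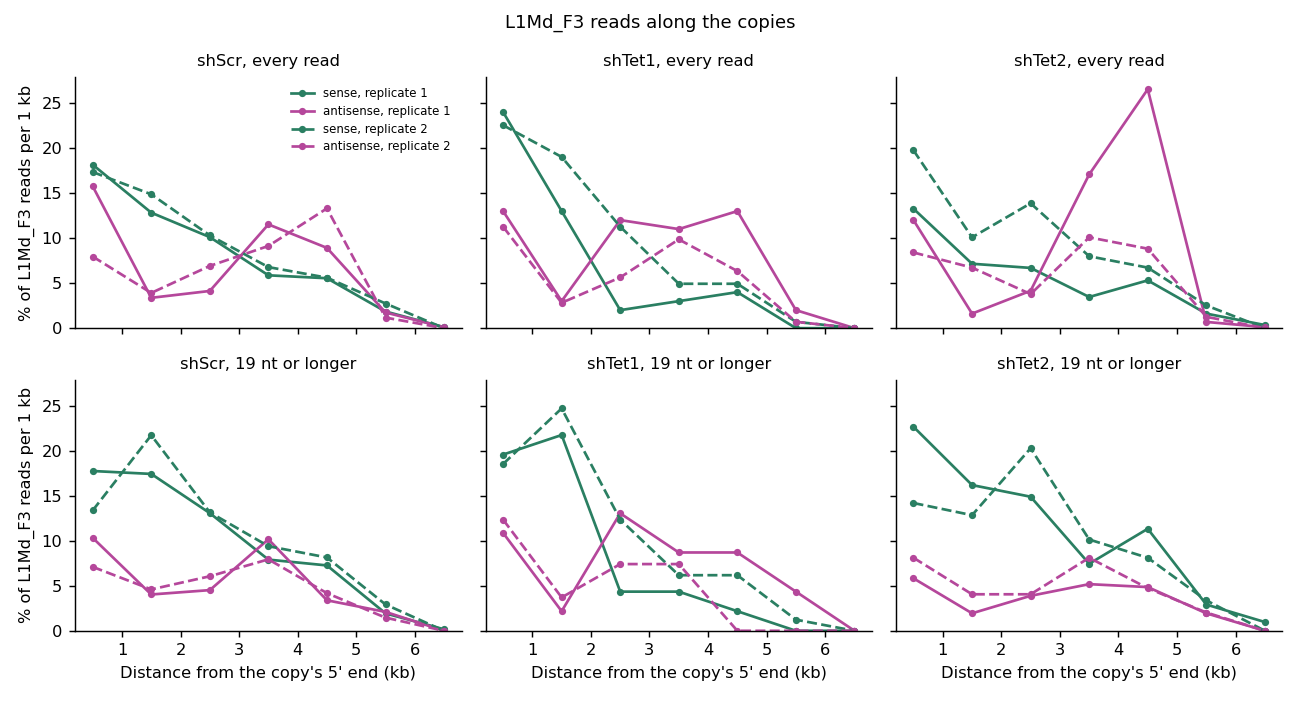
Sense and antisense L1Md_F3 reads per 1-kb window (vertical axis, percentage of the L1Md_F3 reads plotted) against the distance from the 5′ end of the copy (horizontal axis, kb), with replicate 1 solid and replicate 2 dashed; the upper row has every read, the lower row reads of 19 nt or longer. Sense reads are fewest beyond 5 kb, where many copies end (median span 5821 bp), and counts were not corrected for this. The antisense peak of shTet2 replicate 1 between 3 and 5 kb is absent from the lower row.

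Over the whole copy, antisense reads made up 45.5% and 42.4% of the L1Md_F3 reads with shScr, 54% and 36.6% with shTet1, and 62.2% and 39.1% with shTet2. Both knockdowns had 1 library above and 1 below the shScr pair. The differences from shScr were 1.35 and 6.66 percentage points (exact permutation p = 1 for both). Without the TTGATCC reads the shares were 39.3% and 33.4% in the shScr pair, 45.9% and 29.1% in the shTet1 pair, and 39.7% and 31.0% in the shTet2 pair, and in each condition replicate 1 stayed above replicate 2.

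Read lengths were spread widely around a peak at 18 nt on the antisense strand. Median lengths were 25 and 23 nt with shScr, 18 and 21 nt with shTet1, and 18 and 22 nt with shTet2, with reads between 15 and 76 nt listed. Reads of 15 to 18 nt made up 32.6% and 37.5% in the shScr pair, 54.0% and 43.0% in the shTet1 pair, and 64.4% and 37.8% in the shTet2 pair. Reads of exactly 18 nt numbered 106 and 138 with shScr, 15 and 25 with shTet1, and 325 and 32 with shTet2. Their share differed from shScr by 1.55 percentage points in shTet1 (exact permutation p = 1) and 10.7 in shTet2 (exact permutation p = 0.667), where 1 of 2 libraries held the excess.

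Reads in the range of short interfering RNAs, 21 to 23 nt, numbered 57 and 65 with shScr, 10 and 15 with shTet1, and 54 and 17 with shTet2. Their share was higher in both shTet1 libraries than in both shScr libraries, by 2.95 percentage points (10.3% ± 0.398 against 7.34% ± 1.61, SD, n = 2, exact permutation p = 0.333), on 25 reads in all. In shTet2 it differed by -0.65 percentage points (exact permutation p = 1). Reads of 24 to 32 nt, the range of piRNAs, numbered 191 and 151 in the shScr pair, 16 and 25 in the shTet1 pair, and 109 and 44 in the shTet2 pair. Their share was lower than in shScr in both libraries of each knockdown, with differences of -3.42 percentage points for shTet1 and -4.69 for shTet2 (exact permutation p = 0.333 for both). Among reads of 19 nt or longer these differences were 1.66 and 1.34 percentage points, with overlapping groups. With each position counted once they were -4.46 and -2.57, and without TTGATCC reads -3.69 and -2.45, with no overlap between the groups. The sign changed in 1 of 10 alternatives for shTet1 and in 2 of 10 for shTet2. The part of the 15- to 18-nt reads in the lower share was not tested. With all lengths, the shTet2 difference was -1.74 without shTet2 replicate 1 and -7.65 without shTet2 replicate 2, and the difference of 21 to 23 nt in shTet1 was 1.81 without shScr replicate 1.

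**Figure D5:**
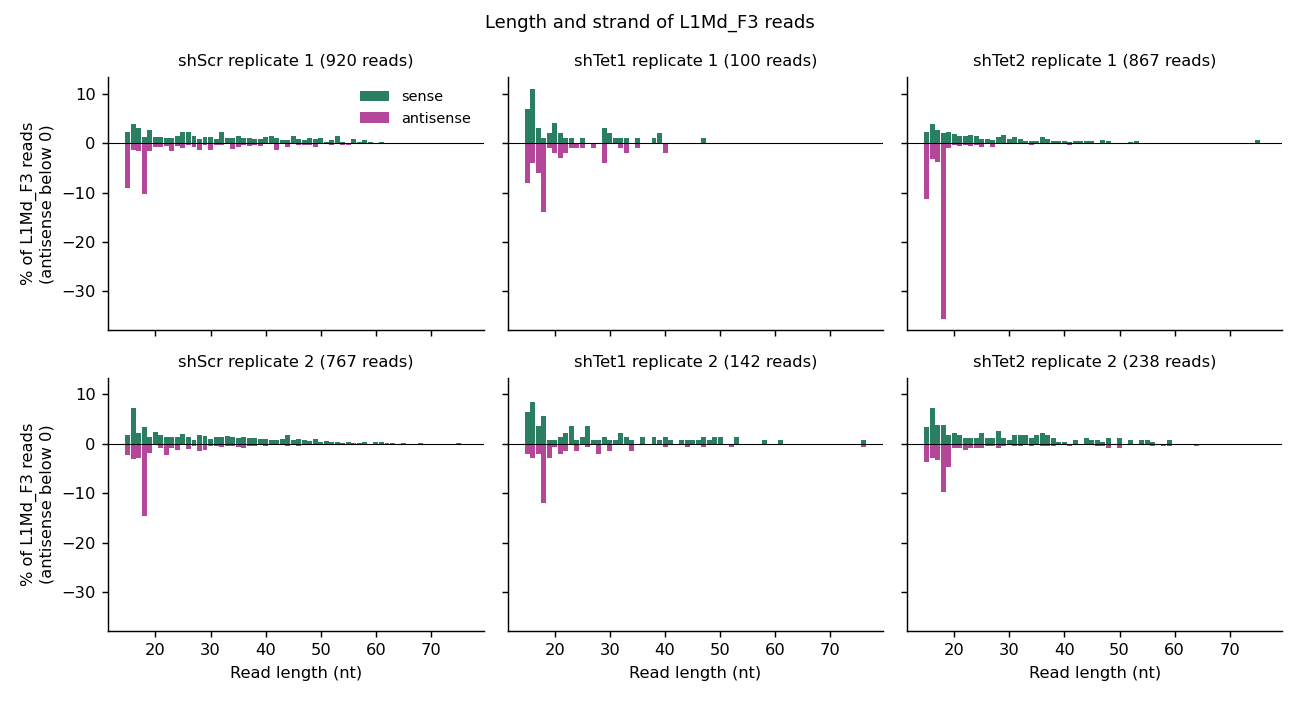
Length of the L1Md_F3 reads (horizontal axis, nt) in each library as a percentage of its L1Md_F3 reads (vertical axis), sense above and antisense below 0. Antisense reads of 18 nt form the tallest bar in each library and are tallest in shTet2 replicate 1, where 325 of 867 reads of either strand have this length.

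The reads of 24 to 32 nt were examined for features that piRNAs are known for. Their first base was T, the DNA letter for U, in 22.0% and 26.5% of reads in the shScr pair, 25.0% and 24.0% in the shTet1 pair, and 18.3% and 27.3% in the shTet2 pair. Their base 10, often A in piRNAs made as partners of others, was A in 35.1% and 36.4% of these reads in the shScr pair, 18.8% and 40% in the shTet1 pair, and 40.4% and 47.7% in the shTet2 pair. The shTet1 values rest on 16 and 25 reads. Shares of T and A at other bases are not given here, so neither feature can be read against a background. Among the 517 reads of this length that remained when each position was counted once, 0 pairs on opposite strands of a copy had 5′ ends overlapping by 1 to 20 nt, the arrangement in which piRNA pairs are found at an overlap of 10 nt. With random placement among copies, partners may stand in different copies, so this count may be low. The 517 reads are also few for 661 copies with a median span of 5821 bp. The count therefore cannot tell an absence of such pairs from too few reads. None of the 3034 reads began with the first 15 nt of any of 1738 mature mouse miRNAs in RefSeq.

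L1Md_F3 was compared with the other classes of the F group, L1Md_F2 and L1Md_F, within each library. With all copies, the first kilobase held 30.6% ± 5.00 of the L1Md_F3 reads (SD, n = 6), 4.35% ± 1.31 of the L1Md_F2 reads and 8.38% ± 3.60 of the L1Md_F reads. The L1Md_F3 value counts reads 1 and 3, which come from 1 L1Md_F3 copy each. L1Md_F3 was higher in 6 of 6 libraries against each (exact permutation test with sign flips within libraries, p = 0.03125, the smallest it can give, adjusted p = 0.0337 over 14 comparisons). The values for L1Md_F are the same without the 3 L1 copies with most reads, where the adjusted p over 14 comparisons is 0.0625, so these calls depend on the comparisons adjusted together. Antisense reads were 46.6% ± 9.72 in L1Md_F3, 24.5% ± 2.32 in L1Md_F2 and 76.8% ± 8.94 in L1Md_F, again with the same order in 6 of 6 libraries (exact permutation p = 0.03125, adjusted p = 0.0337). The libraries are of 3 conditions, so the test covers these 6 libraries and not a population of controls.

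The contrast with L1Md_F2 moved with a few copies. Without the 3 L1 copies with most reads, the first kilobase held 23.8% ± 4.14 of the L1Md_F2 reads, and L1Md_F3 was higher in 5 of 6 libraries (difference 6.81 percentage points, SD 5.75, exact permutation p = 0.0625, adjusted p = 0.0972). The antisense share of L1Md_F2 was then 42.0% ± 4.51, and L1Md_F3 was higher in 3 of 6 libraries (exact permutation p = 0.25, adjusted p = 0.292). The last kilobase held 4.36% ± 1.39 in L1Md_F3 and 9.0% ± 1.26 in L1Md_F2, lower in L1Md_F3 in 6 of 6 libraries (exact permutation p = 0.03125, adjusted p = 0.0625), whereas with all copies L1Md_F2 stood at 1.65% ± 0.456 and below L1Md_F3. Among reads of 19 nt or longer, again without the 3 copies, the first kilobase held 26.8% ± 4.35 in L1Md_F3 and 18.2% ± 1.40 in L1Md_F2, with L1Md_F3 higher in 6 of 6 libraries (exact permutation p = 0.03125, adjusted p = 0.125 over 12).

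The contrast with L1Md_F moved with the 18-nt reads. Reads of 18 nt made up 64.4% ± 12.8 of the L1Md_F reads and 18.8% ± 9.46 of the L1Md_F3 reads, lower in L1Md_F3 in 6 of 6 libraries (exact permutation p = 0.03125, adjusted p = 0.0337 with all copies and 0.0625 without the 3 copies). Among reads of 19 nt or longer, the first kilobase held 17.1% ± 5.65 in L1Md_F against 26.8% ± 4.35 in L1Md_F3, higher in L1Md_F3 in 5 of 6 libraries (difference 9.67 percentage points against 22.2 with all lengths, exact permutation p = 0.0625, adjusted p = 0.125). Among reads of 19 nt or longer, antisense reads made up 36.4% ± 6.55 in L1Md_F and 33.2% ± 8.01 in L1Md_F3, a difference of -3.23 percentage points (SD 8.26, exact permutation p = 0.375, adjusted p = 0.5). The share of reads of 24 to 32 nt was then 26.3% ± 5.80 in L1Md_F and 32.2% ± 2.30 in L1Md_F3, higher in L1Md_F3 in 5 of 6 libraries (exact permutation p = 0.0625, adjusted p = 0.125).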

How the data were processed

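Small RNA-seq libraries (75 bp, single-end) were made by the authors with a small RNA kit and gel selection. Per the labels and the study's methods, the authors trimmed reads with Trim Galore 0.3.3, aligned them to mm9 with Bowtie2 2.1.0 and put reads with several equally good places at a random one. The deposited tables list 1 read per line with its sequence and place, followed by where the L1 copy lies, its class and its strand, with no count or score per copy. How copies were chosen is not given in the sources used here.

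Reads were tallied here per library, class, copy, strand, length and position, taking the midpoint of the read and the distance from the 5′ end of the copy as annotated. All samples were grouped by their labels. The 3 libraries numbered replicate 1 and the 3 numbered replicate 2 were treated as unpaired in the main fit. Class tallies that reached 10 reads in 2 or more libraries were fitted with limma voom (limma 3.58.1, R 4.3.3) over all 6 libraries with TMM factors and Benjamini-Hochberg adjustment. Listed L1 reads ranged from 11566 to 128715 per library, and 3 reads correspond to 0.00233% to 0.0259% of a library's L1 reads. Shares were compared with exact two-sided permutation tests. Read sequences were searched for, with no mismatch and in both orientations, in the NCBIM37 (mm9) genome, and genes were taken from GENCODE for that build. Software was pysam 0.24.0, scipy 1.17.1 and pandas 2.3.3 under Python 3.11.15.

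The copies named are the 3 with the highest mean share of the L1Md_F3 reads, with every read and with each position counted once, and the reads named are the 6 with the highest mean share. The members and lists were chosen with earlier results of these data known. Reads holding TTGATCC that start at base 1 to 8 of the read, reads of 19 nt or longer, and the joint exclusion of 3 copies and TTGATCC reads were added after seeing the data.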

Additional observations from a re-analysis of the deposited data

How the results depend on the processing

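Of 210 alternative values for L1Md_F3, 36 changed sign and 174 did not. The 174 include the values with replicate numbers as a block for reads and shares, which equal the main values by construction and could not change sign. Exact tests of 2 libraries against 2 allow no p under 0.333, so only the class fold change has a threshold to cross; the L1Md_F3 class fold change did not pass an adjusted p of 0.05 under any alternative run. Unless another cause is given, the cause was not tested. Values below are log2 fold changes or log2 differences for the class fit and for reads, and percentage points for shares.

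For shTet1 against shScr, the class fold change was 0.073 without TMM (adjusted p = 0.913). The difference in share of the L1 reads was -0.617 with each position counted once, -0.00699 for reads of 18 to 32 nt, -0.209 without the 3 copies with most reads, -0.0402 for reads of 19 nt or longer and -0.192 without these copies and the TTGATCC reads. The 5′ kilobase share differed by -22.2 for reads with 1 genome place, on 6 and 8 shTet1 reads. The 3′ kilobase share differed by 0.119 for reads of 18 to 32 nt, and the share of 24 to 32 nt by 1.66 for reads of 19 nt or longer.

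For shTet2 against shScr, with each position counted once, the class fold change was -0.062, the antisense difference -2.13, the 5′ kilobase 2.09, the 3′ kilobase 0.670 and the 21 to 23 nt share 0.800. For reads with 1 genome place, antisense was -1.63, the 3′ kilobase 6.33 and the 24 to 32 nt share 18.5. Without TTGATCC reads, antisense was -1.02, the 5′ kilobase 2.64, the 3′ kilobase 0.324 and 21 to 23 nt 0.737. For reads of 19 nt or longer, antisense was -5.56, the 5′ kilobase 1.13, the 3′ kilobase 1.78, 21 to 23 nt 3.10 and 24 to 32 nt 1.34.

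With each library left out in turn, some results changed sign, and these are given first with their ranges. In shTet1, the share of L1 reads ranged from -0.0599 (without shTet1 replicate 1) to 0.200, antisense from -7.34 (without shTet1 replicate 1; -0.234 without shScr replicate 2) to 10.04, and 18 nt from -1.69 (without shScr replicate 1) to 4.78. In shTet2, reads ranged from -1.82 to 0.0456 (without shTet2 replicate 2), antisense from -4.88 (without shTet2 replicate 1) to 18.2, the 5′ kilobase from -7.21 to 1.41 (without shScr replicate 1), the 3′ kilobase from -1.55 to 0.644 (without shTet2 replicate 1), 21 to 23 nt from -1.79 to 0.490 (without shScr replicate 2) and 18 nt from -1.31 (without shTet2 replicate 1) to 22.7. The class fold change kept its sign. It ranged from -0.20 (without shScr replicate 2) to -0.01 (without shScr replicate 1) in shTet1. In shTet2 it ranged from 0.29 to 0.47, lowest without shTet2 replicate 1. A lone library was then assumed to vary like the other groups. The shTet2 difference in share of L1 reads also kept its sign and ranged from 0.0172 (without shTet2 replicate 1) to 0.585.

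With the replicate numbers as a block, the class fold change was -0.13 (limma voom, adjusted p = 0.593) in shTet1 and 0.38 (adjusted p = 0.0550) in shTet2. Deviations of same-numbered libraries from their group means correlated over 21 classes with 0.0590 (shScr and shTet1), 0.586 (shScr and shTet2) and 0.435 (shTet1 and shTet2), and read 3 was frequent in the replicate 1 libraries alone. Whether a number marks a shared batch is not in the labels, and the first correlation is near 0, so the block was kept as an alternative. It changed no direction and no call of the class fit, and for reads and shares it gives the main difference by construction. Values for shTet1, with 100 and 142 L1Md_F3 reads, and values from reads with 1 genome place rest on the fewest reads.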
